A study of Mus musculus with 6 samples.

Results

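Tfrc, the gene of the transferrin receptor, and 7 further genes of iron handling were followed in colon epithelium of mice fed ursodeoxycholic acid (UDCA), a hydrophilic bile acid, at 0.4% of the diet, and of mice on a standard diet without it. The 8 genes are Tfrc, Slc11a2, Slc40a1, Heph, Fth1, Ftl1, Aco1 and Ireb2. They were chosen by gene symbol with earlier results of this diet contrast known. Their differences between diets are therefore given as a description, and nothing is read from the test counts given for them. They are 8 of 12394 genes that probe sets of the array name, and have 20 probe sets of 22690, of which 3 are the TransRecMur control probe sets that Affymetrix placed along the mouse transferrin receptor transcript. Ftl1 had no probe set that names it alone. Its 3 probe sets are listed for Ftl1 together with a pseudogene, Ftl1-ps2, and 1 of them also for 3 microRNA genes, so they are given as Ftl1/Ftl1-ps2.

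Each diet had 3 arrays, and each array received RNA pooled from 2 animals, so 6 animals stand behind a group. The pools are called UDCA 1+2, 3+4 and 5+6 and control 1+2, 3+4 and 5+6, and values are given in this order. The sources used here give no strain, age or duration of feeding, and p-values measure the spread between pools. Labels also carry a tag for IEC-6, a rat intestinal cell line, which goes against the organism and tissue they name, and all arrays were taken as mouse tissue. Nothing in the labels ties a UDCA pool to the control pool of the same number.

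Iron enters cells bound to transferrin through the transferrin receptor, which is taken into endosomes, where the divalent metal transporter Slc11a2 moves the iron into the cytosol. Iron that is not used is stored in ferritin, a shell of heavy (Fth1) and light (Ftl1) chains, or leaves through ferroportin (Slc40a1), with hephaestin (Heph) oxidising it on the way out. The proteins of Aco1 and Ireb2 bind hairpins called iron-responsive elements in some of these messages when iron is scarce. Binding stabilises the Tfrc message and blocks translation of the ferritin messages, so a ferritin mRNA level says little about ferritin protein.

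Short stretches near the listed start sites show where 2 sets of letters, ACGTG and TATAA, stand in Tfrc and in both ferritin genes. They come from RefSeq promoter windows (GRCm38.p6, 250 bases before a listed start and 50 from it on), in which 5 of the 8 genes were found, with 7 windows. Slc11a2, Slc40a1 and Heph had no entry. Capitals mark ACGTG, the core letters of the site bound by hypoxia-inducible factors, searched on both strands, or TATAA, searched on the gene's strand.
Tfrc, chr16:32608882-32608911, plus strand, ACGTG: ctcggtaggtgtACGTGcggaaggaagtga
Tfrc, chr16:32608938-32608967, plus strand, TATAA: gtggggccgagcTATAAgctttgggtggga
Fth1, chr19:9982660-9982689, plus strand, TATAA: gcaggatcccgcTATAAgtgcggcccgctg
Ftl1, chr7:45459852-45459881, minus strand, TATAA: gggtcaacatgcTATAAaaggagcgctcct

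The ACGTG of Tfrc spans the first of its 2 listed starts, at base 32608896, and lies 228 bases before the second, at 32609122. Of the 5 genes found, only Tfrc held ACGTG, which 19.6% of all 32851 windows hold. TATAA begins 172 bases before the second Tfrc start. Counting the listed start as base 1, it begins at base 27 from a listed Fth1 start and at base 18 from the Ftl1 start. It was found for these 3 genes and not for Aco1 or Ireb2, against 17.5% of all windows. CACGTG, the E-box that MYC can bind (both strands, and itself a form of ACGTG), was in none of the 7 windows and in 7.15% of all. TGACNNNGC, the core of the antioxidant response element (both strands), was in none of them and in 12.4% of all. CAGTGN, the loop letters of the iron-responsive element, was in none of the 7 windows over the 50 bases from the listed start on, where 7.08% of all windows hold it. The rest of the messages was not searched, so this does not tell whether they hold such an element. A match describes letters only, and no match says nothing about a factor.

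The arrays had not been brought to 1 level when deposited. Median signals were 73.0, 87.3 and 68.2 on the UDCA arrays and 67.4, 75.1 and 84.0 on the control arrays. Means without the 2% highest and lowest signals were 288, 334 and 264 on the UDCA arrays and 238, 279 and 308 on the control arrays. Signals are therefore given as deposited, on a linear intensity scale, and log2 fold changes (UDCA minus control) after quantile normalization of log2(intensity + 16). All 13 colonocyte markers measured, such as Car1 and Krt8, lay above the filter on dim probe sets (the upper 50% by mean, a signal of about 75.7). None of 12 erythroid markers did, with a highest signal of 47.8 on any array. Of 17 macrophage markers 1 did, Cd14, a receptor for bacterial lipopolysaccharide.

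Tfrc was about 1 log2 unit higher in the UDCA pools on average, and it also differed between pools of 1 diet, over 0.78 to 1.57 log2 units among UDCA pools and 0.80 to 1.17 among control pools. Probe set 1452661_at, the brightest of the 6, had signals of 4366.5, 3346.9 and 2259.4 in the UDCA pools, against 1134.0, 1261.9 and 2506.3 in the control pools. UDCA 1+2 was the highest pool, control 1+2 and 3+4 were the lowest, and control 5+6 lay above UDCA 5+6, so the deposited groups overlapped. The means were 3324 ± 1054 in UDCA pools and 1634 ± 758 in control pools (SD, n = 3 each). The log2 fold change was 0.91 (SE 0.25).

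The other Tfrc probe sets had UDCA 1+2 and the first 2 control pools at the same ends, at lower signals. Probe set 1422966_a_at had 1026.8, 524.7 and 455.9 in the UDCA pools, against 180.2, 216.9 and 482.4 in the control pools, a log2 fold change of 1.11 (SE 0.35). Probe set 1422967_a_at had 332.3, 133.4 and 133.0 in the UDCA pools, against 42.2, 51.1 and 135.5 in the control pools, a log2 fold change of 1.22 (SE 0.40). In both, UDCA 1+2 stood alone at the top and control 5+6 beside the remaining UDCA pools.

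The TransRecMur probe sets, which probe the 3' end, the middle and the 5' end of the message, had the same pools at their ends. The 3' probe set had signals of 673.4, 369.8 and 290.7 in the UDCA pools, against 137.3, 157.5 and 323.8 in the control pools, a log2 fold change of 1.0 (SE 0.32). The middle probe set had 230.9, 96.7 and 89.8 in the UDCA pools, against 34.2, 41.2 and 86.5 in the control pools, a log2 fold change of 1.10 (SE 0.35). The 5' probe set had 321.5, 112.9 and 129.9 in the UDCA pools, against 40.5, 44.9 and 134.1 in the control pools, a log2 fold change of 1.19 (SE 0.43). Of these 3, the middle probe set had every UDCA pool above every control pool as deposited.

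Across the 6 Tfrc probe sets, UDCA 1+2 was the highest pool in 6 and control 1+2 and 3+4 were the lowest in 6. Control 5+6 lay above UDCA 5+6 in 5 of them as deposited, and in 0 after normalization. Relative to control 1+2, the median over these probe sets was 2.20, 0.97 and 1.13 log2 units higher in the UDCA pools, against 0.05 in control 3+4 and 0.93 in control 5+6. Control 5+6 exceeded the mean of control 1+2 and 3+4 by 0.75 to 1.16 log2 units, and UDCA 1+2 exceeded that of UDCA 3+4 and 5+6 by 0.68 to 1.33. Pairwise Pearson correlations between the 6 probe sets over the 6 arrays were 0.95 or higher, as a description of probes on 1 transcript and the same RNA. The range over the 6 arrays, 1.68 to 2.48 log2 units, was wider than that of at least 98.7% of all probe sets above the filter, whose median was 0.45.

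**Figure D1:**
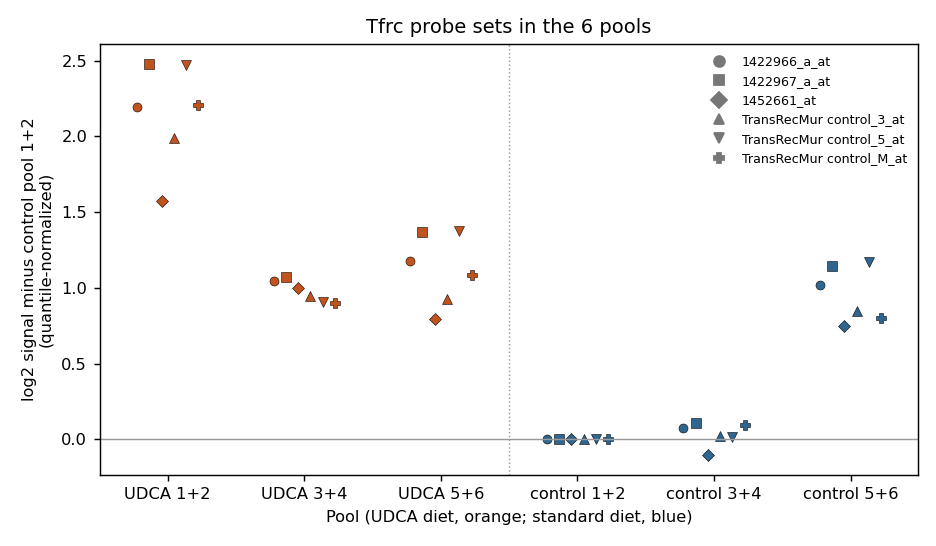
Log2 signal of the 6 Tfrc probe sets (vertical axis, quantile-normalized, minus control pool 1+2) in the 3 UDCA pools (left, orange) and the 3 control pools (right, blue), with 1 marker shape per probe set and 1 array per pool. UDCA 1+2 is highest (median 2.20), and control 5+6 (median 0.93) lies with UDCA 3+4 (0.97) and UDCA 5+6 (1.13), not with control 3+4 (0.05).

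The ratio of 3' to 5' TransRecMur signal was 2.09, 3.28 and 2.24 in the UDCA pools, against 3.39, 3.51 and 2.41 in the control pools. It was lowest in the 3 pools with the highest 5' signal. The same ratio for Actb lay between 1.15 and 1.25 on all 6 arrays. The 5' signals of control 1+2 and 3+4 lay below the filter's level, and the part of dim signal in this ratio was not tested.

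Of the 20 probe sets of the 8 genes, all of which passed the filter, 0 were called in limma at an adjusted p under 0.05, against 0.00884% of all 11314 probe sets tested (1 probe set, of Apoc2). At an unadjusted p under 0.05 stood 6 of the 20, all of them Tfrc, and 1546 of the 11314. With the deposited intensities left unscaled, the same 6 Tfrc probe sets were called and none of the other 14, against 0.725% of all probe sets, although 5 of these 6 had overlapping groups. After normalization every UDCA pool lay above every control pool for 7 of the 20, against 10.9% of all probe sets, and below for 0, against 8.36%. Since the genes were chosen with this contrast known, nothing is read from these shares. The TransRecMur middle and 5' probe sets had mean control signals below the filter's level, and that of 1422967_a_at, 76.3, lay close to it. Control 1+2 and 3+4 lay below that level in each of these probe sets, which passed the filter through the pools in which they were high.

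Without control 5+6, the log2 fold changes of the 6 Tfrc probe sets were 1.18 to 1.59 and every UDCA pool lay above the remaining control pools for 6 of them. Without UDCA 1+2 they were 0.65 to 0.80, with separate groups for 4, the same number as with all pools. Neither of these fits called a member. Separate groups were found for 20.5% and 14.9% of all probe sets in these fits.

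Slc11a2, which carries iron out of the endosome and, in the duodenum, from the gut lumen, had 3 dim probe sets that did not agree in the order of pools. Probe set 1426441_at had signals of 132.9, 145.1 and 86.9 in the UDCA pools, against 90.3, 80.7 and 107.3 in the control pools, a log2 fold change of 0.29 (SE 0.16). Its groups overlapped, with UDCA 5+6 below control 1+2 and 5+6. Probe set 1452078_a_at had 135.9, 142.4 and 105.2 in the UDCA pools, against 99.2, 107.7 and 109.4 in the control pools, a log2 fold change of 0.21 (SE 0.12). Probe set 1417584_at had 89.8, 117.8 and 76.0 in the UDCA pools, against 87.4, 99.8 and 83.7 in the control pools, a log2 fold change of 0.03 (SE 0.15). Correlations between these probe sets over the 6 arrays were 0.17 to 0.82. Which of them matches the Slc11a2 messages with or without an iron-responsive element is not given in the files.

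Slc40a1, the iron exporter, differed more between pools of 1 diet than between the means of the diets. Probe set 1417061_at had signals of 1354.7, 1824.7 and 980.6 in the UDCA pools, against 1553.1, 1831.1 and 1041.5 in the control pools. Probe set 1448566_at had 586.9, 662.2 and 350.8 in the UDCA pools, against 548.2, 630.3 and 395.9 in the control pools. In both probe sets pool 5+6 was the lowest of its diet, and the groups overlapped. The log2 fold changes were -0.23 (SE 0.26) and -0.10 (SE 0.25), the second of them -0.00 on the deposited scale. Over the alternatives the first lay between -0.55 and -0.06 and the second between -0.38 and 0.10. The probe sets correlated at 0.95 over the 6 arrays, and their ranges of 0.97 and 0.85 log2 units were wider than those of 93.0% and 89.3% of all probe sets. Among the 14 probe sets that are not of Tfrc, 5 had pool 5+6 lowest in both diets after normalization, namely both of Slc40a1, Slc11a2 1417584_at and 1452078_a_at and Fth1 1427021_s_at. The share of all probe sets with this order of pools was not computed, so nothing is read from the count.

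Heph, the membrane ferroxidase that works with ferroportin, had signals of 1161.9, 1602.8 and 1052.8 in the UDCA pools, against 809.3, 1090.3 and 1161.1 in the control pools. The deposited groups overlapped, with UDCA 5+6 below control 3+4 and 5+6, and after normalization UDCA lay above control in all pools by a narrow margin. The lowest UDCA pool then stood at 10.15 and the highest control pool at 10.13 on the log2 scale. The log2 fold change was 0.19 (SE 0.11), and 0.31 with the intensities as deposited.

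Fth1, the ferritin heavy chain with ferroxidase activity, varied little between pools, with ranges wider than those of 9.47% and 20.2% of all probe sets. Probe set 1448771_a_at had signals of 7503.6, 9190.8 and 7027.5 in the UDCA pools, against 7514.3, 7900.1 and 7614.8 in the control pools. Probe set 1427021_s_at had 5860.5, 6768.5 and 5516.1 in the UDCA pools, against 5751.7, 6382.4 and 5664.9 in the control pools. The groups overlapped in both. The log2 fold changes were -0.05 (SE 0.07) and -0.09 (SE 0.08), and 0.03 and 0.02 on the deposited scale, so their sign turned with the scaling.

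The light chain probe sets, which cannot tell Ftl1 from Ftl1-ps2, were slightly higher on average in the UDCA pools. Probe set 1418364_a_at had signals of 3885.6, 4597.6 and 3192.3 in the UDCA pools, against 2662.8, 3568.9 and 3612.2 in the control pools, a log2 fold change of 0.10 (SE 0.08). Probe set 1422302_s_at had 3323.3, 3801.0 and 2827.0 in the UDCA pools, against 2282.6, 2818.9 and 3218.7 in the control pools, a log2 fold change of 0.12 (SE 0.07). Both had 1 UDCA pool, 5+6, within the range of the control pools as deposited. Probe set 1422301_at, which is also listed for microRNA genes, had 370.3, 553.7 and 299.6 in the UDCA pools, against 277.0, 332.2 and 389.8 in the control pools, a log2 fold change of 0.17 (SE 0.14). Unscaled, these 3 log2 fold changes were 0.24 to 0.26, where the median of all probe sets was 0.08 in place of 0.01. Heph and the light chain probe sets correlated at 0.83 to 0.90 over the 6 arrays, on the same RNA.

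Aco1 and Ireb2 encode the iron-regulatory proteins, of which the Aco1 product doubles as cytosolic aconitase when it holds an iron-sulfur cluster. Aco1 had signals of 2067.4, 2853.8 and 2222.9 in the UDCA pools, against 1797.2, 2011.8 and 2478.8 in the control pools, by probe set 1456728_x_at. Probe set 1423644_at had 461.4, 533.9 and 393.5 in the UDCA pools, against 390.2, 376.3 and 474.4 in the control pools. The log2 fold changes were 0.05 (SE 0.10) and 0.07 (SE 0.11), with overlapping groups, and the 2 probe sets correlated at only 0.19. Ireb2 had signals of 306.7, 416.8 and 325.6 in the UDCA pools, against 281.5, 328.7 and 386.2 in the control pools. Its log2 fold change was -0.01 (SE 0.10), and 0.07 as deposited, and its range over the arrays, 0.20 log2 units, was wider than that of 8.03% of all probe sets.

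**Figure D2:**
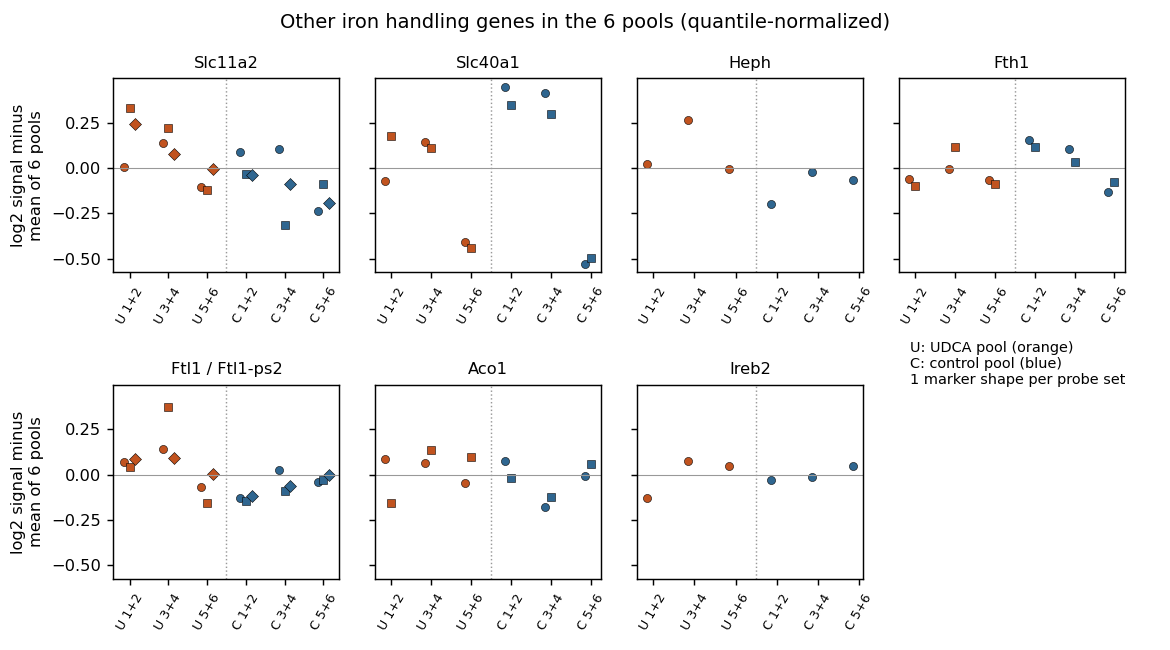
Log2 signal (vertical axis, quantile-normalized, minus the mean of the 6 pools) of the 14 probe sets that are not of Tfrc, in UDCA pools (U, orange) and control pools (C, blue), with 1 panel per gene and 1 marker shape per probe set. Pool 5+6 is lowest in both diets for 5 of the 14, both of Slc40a1, 2 of Slc11a2 and 1 of Fth1, and the ranges over the pools are widest for Slc40a1 (0.97 and 0.85 log2 units). The share of all probe sets with pool 5+6 lowest in both diets was not computed.

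The 8 genes thus did not share 1 pattern over the pools. Tfrc had median correlations over the 6 arrays of 0.68 with Slc11a2, 0.47 with Ftl1/Ftl1-ps2, 0.40 with Heph, 0.25 with Aco1, -0.37 with Ireb2, -0.45 with Slc40a1 and -0.72 with Fth1. Between single probe sets they varied, from -0.41 to 0.83 for Slc11a2, 0.21 to 0.91 for Ftl1/Ftl1-ps2 and -0.17 to 0.56 for Aco1. These describe 6 arrays and all probes on an array share its RNA and its normalization. Fewer cells with a message and less of it per cell cannot be told apart in such pools.

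**Figure D3:**
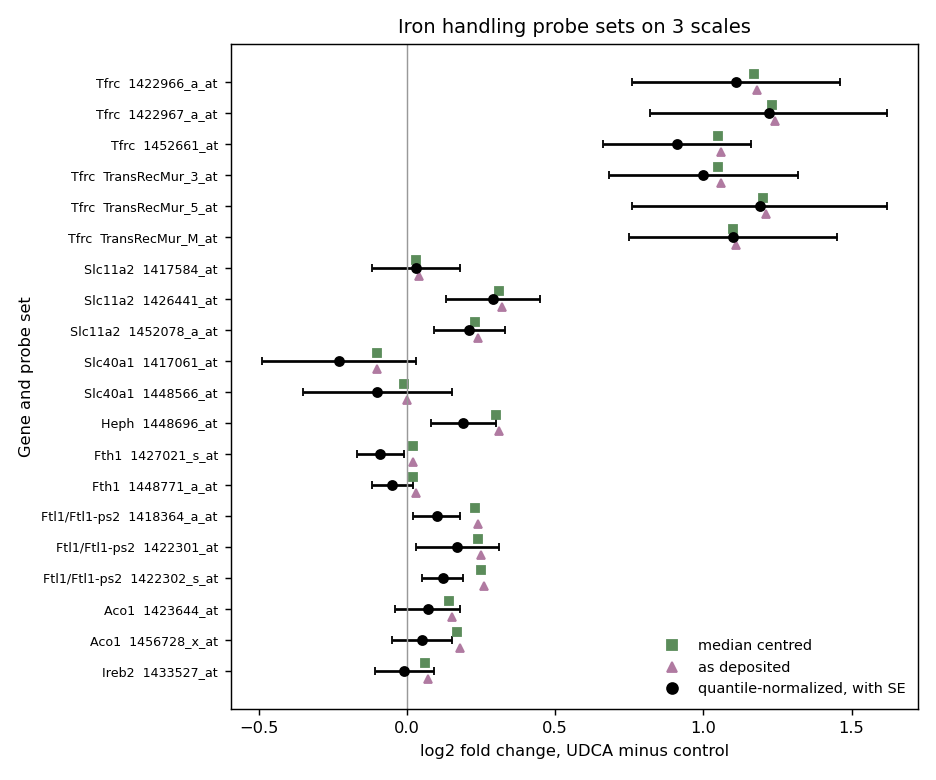
Log2 fold change, UDCA minus control (horizontal axis), of the 20 probe sets after quantile normalization (black, bars are the SE from limma), after median centring (green squares) and as deposited (purple triangles). The 6 Tfrc probe sets lie between 0.91 and 1.22 after normalization, and the others between -0.23 and 0.29. The positive sign held on all 3 scales for 15 of the 20.

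The genes whose levels over the 6 arrays were most like Tfrc 1452661_at, among 6677 named genes above the filter, were Nol7, Bag5, Srp68, Cyp2c65 and Aldh9a1, with Pearson correlations of 0.993, 0.992, 0.992, 0.991 and 0.987. The correlations were taken on the quantile-normalized log2 scale, while the signals printed here are the deposited ones. The ranges of these genes were mostly narrower than that of Tfrc. Nol7 had signals of 1207.5, 1293.6 and 970.6 in the UDCA pools, against 710.2, 852.2 and 1085.9 in the control pools. Cyp2c65, a cytochrome P450, had 574.9, 344.0 and 189.5 in the UDCA pools, against 69.2, 91.2 and 235.0 in the control pools, again with control 5+6 above UDCA 5+6. The most opposite were Muc3, Hnrnpd, Cep70, Gm2a and Ptpn13, at -0.996 to -0.988. Muc3 had a range of 0.23 log2 units. Of the 6677 genes, 74 (1.11%) correlated above 0.95.

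Markers of absorptive cells of the small intestine differed among themselves in how they followed Tfrc. Fabp2, a fatty acid binding protein of enterocytes, had signals of 1783.5, 1768.2 and 1116.8 in the UDCA pools, against 195.8, 383.5 and 1821.0 in the control pools, so control 5+6 again lay with the UDCA pools, and a correlation of 0.88 with Tfrc 1452661_at over the 6 arrays. Fabp6, a bile acid binding protein of the ileum, had 979.8, 506.5 and 250 in the UDCA pools, against 133.2, 231.5 and 245.6 in the control pools. Its correlation with that Tfrc probe set was 0.87. The glucose transporter gene Slc5a1 had 1107.9, 1372.3 and 1046.2 in the UDCA pools, against 1117.9, 1432.6 and 1259.9 in the control pools, with a log2 fold change of -0.23 and a correlation of -0.92 with the same Tfrc probe set. Rbp2, a retinol binding protein, had a log2 fold change of 0.43 with a correlation of -0.01, and Apob, of lipoproteins, 0.64 with a correlation of 0.47. Of 13 such markers these 5 and Apoc2 lay above the filter, with 1 called higher, Apoc2 (log2 fold change 1.56, SE 0.13; limma adjusted p = 0.0202), which activates lipoprotein lipase. Apoc2 had a correlation of 0.71 with Tfrc 1452661_at. Summed over the 13, signals were 2975 to 4885 in UDCA pools and 1859 to 3678 in control pools. Apoa4, Lct and Slc10a2 of this list had at most 18.7 on any array. The part of such cells in the Tfrc values was not tested.

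Other genes of iron handling, taken from 9 lists, gave 67 genes above the filter of 93 on the array, each by its brightest probe set. In limma 0 of them were called and 12 had an unadjusted p under 0.05. The log2 fold change was positive for 37 (44 as deposited and 44 after centring), with a median of 0.03. Of all probe sets tested 51.2% were positive, 65.1% as deposited and 63.7% after centring, and the counts of signs per list below stand beside these shares. Every UDCA pool lay above every control pool for 7 genes (10.4%) and below for 7 (10.4%), close to the shares of 10.9% and 8.36% over all probe sets. For the genes of these lists and of the hypoxia and proliferation lists, groups are called separate or overlapping after normalization, while the signals printed are the deposited ones.

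All 6 genes of iron import and reduction above the filter had negative log2 fold changes, where 51.2% of all probe sets had positive ones. Their median was -0.13, with 0 called and 0 at an unadjusted p under 0.05. Slc46a1, which carries folate and haem, had signals of 104.1, 162.4 and 126.3 in the UDCA pools, against 223.8, 262.0 and 115.0 in the control pools, and a log2 fold change of -0.55 (SE 0.31). The metal transporter Slc39a14 had -0.16, the lysosomal channel Mcoln1 -0.17 and Cyb561, a reductase of the cytochrome b561 family, -0.11 (-0.00 as deposited). The groups overlapped for all 4.

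Of 6 genes that move the receptor through endosomes, 5 had positive log2 fold changes (6 as deposited), with a median of 0.14, and 0 were called while 1 had an unadjusted p under 0.05. Snx3, which sorts the receptor back to the surface, had signals of 1823.3, 2418.5 and 1694.0 in the UDCA pools, against 1282.9, 1348.8 and 1786.7 in the control pools. Its log2 fold change was 0.30 (SE 0.10), with separate groups after normalization. Vps35, a retromer subunit, had 0.13 with separate groups, and Ehd1 and the exocyst gene Exoc6 had 0.31 and 0.15 with overlapping groups.

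Export, copper supply and storage partners went both ways and 0 of them were called. Among 6 genes of ferroxidase and copper handling the median was 0.02, with 0 at an unadjusted p under 0.05. Commd1, Ccs, Slc31a1 and Atp7a had 0.21, 0.13, 0.03 and -0.03, with overlapping groups, and Atp7a had 0.06 as deposited. Among 5 genes of iron chaperones, ferritin turnover and mitochondrial iron import the median was -0.17, with 2 at an unadjusted p under 0.05. Slc25a28 (mitoferrin 2), which brings iron into mitochondria, had signals of 233.6, 313.7 and 236.5 in the UDCA pools, against 295.5, 360.7 and 330.4 in the control pools, with a log2 fold change of -0.39 (SE 0.11) and UDCA below control in all pools after normalization. The iron chaperone gene Pcbp2 had -0.25, also with separate groups, while Pcbp1 had 0.13 and Ncoa4, the receptor that sends ferritin to lysosomes, had -0.17, both with overlapping groups.

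Of 10 regulators, 7 had negative log2 fold changes, with a median of -0.23, and 3 had an unadjusted p under 0.05 with 0 called. These 3 were Neo1, Bmp2 and Smad1, and all had UDCA below control in every pool. Bmp2, a bone morphogenetic protein, had signals of 472.5, 535.4 and 364.8 in the UDCA pools, against 838.0, 844.3 and 565.2 in the control pools, and a log2 fold change of -0.79 (SE 0.22). Neo1, a receptor that binds hemojuvelin, had 114.8, 163.3 and 149.6 in the UDCA pools, against 243.6, 208.3 and 219.8 in the control pools, and a log2 fold change of -0.65 (SE 0.16). Smad1 and Smad4, which carry signals of such ligands to the nucleus, had -0.31 and -0.30, the last with overlapping groups. Smad5, a close relative of Smad1, had -0.17 with overlapping groups, and Bmp6, the ligand that drives hepcidin in liver, lay below the filter. Without control 5+6, 1 probe set of the 9 lists was called, of Bmp2, with a log2 fold change of -1.07 (limma adjusted p = 0.0339). In that fit 36 probe sets (0.318% of all) were called, the most of any fit without 1 array, so nothing is read from this call.

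Of the other messages on the list of iron-responsive elements, Epas1, which encodes a hypoxia-inducible factor, had a log2 fold change of -0.40 (SE 0.25) and Ppox, an enzyme of haem synthesis, 0.02, with overlapping groups. Epas1 also stands on the list of regulators and Ppox on that of haem synthesis. They were the only 2 of 5 above the filter, with 0 called and 0 at an unadjusted p under 0.05.

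Haem synthesis had 10 genes above the filter, 6 of them positive (8 as deposited), with a median of 0.04, 0 called and 1 at an unadjusted p under 0.05. Tmem14c, which takes part in moving a haem precursor into mitochondria, had signals of 1336.2, 1454.0 and 1125.9 in the UDCA pools, against 779.5, 935.8 and 1181.5 in the control pools, and a log2 fold change of 0.32 (SE 0.10). Alad, an early enzyme of the pathway, had -0.17 with UDCA below control in all pools after normalization. Abcb10 and Alas1, the first enzyme, had 0.20 and 0.18 with overlapping groups. Among 6 genes of haem breakdown and transport the median was -0.02 (0.07 as deposited), with 0 called and 1 at an unadjusted p under 0.05. Abcg2, an exporter of porphyrins and drugs, had 0.41, Blvrb, a biliverdin reductase, -0.27, Slc48a1, a haem transporter, -0.24 and Hmox2, a haem oxygenase, 0.09. After normalization UDCA was below control in all pools for Blvrb, and the groups overlapped for the other 3.

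Genes of iron-sulfur cluster assembly were positive for 15 of 18, where 51.2% of all probe sets were positive. Their median was 0.15, where that of all probe sets was 0.01, and 0 were called while 4 had an unadjusted p under 0.05. Nubp2, a scaffold of the cytosolic pathway, had signals of 316.7, 335.2 and 282.7 in the UDCA pools, against 189.2, 202.4 and 259.8 in the control pools, and a log2 fold change of 0.44 (SE 0.10). Ciao3, of the same pathway, had 0.30, the mitochondrial chaperone gene Hspa9 0.21 and Cisd1, a mitochondrial outer membrane protein with an iron-sulfur cluster, 0.25. After normalization UDCA lay above control in all pools for 4 of the 18, namely Nubp2, Ciao3, Hspa9 and Ciapin1, while the groups of Cisd1 overlapped. The same held for 10.9% of all probe sets.

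Tfrc is also known as a gene induced by hypoxia and expressed in dividing cells. Of 11 hypoxia-induced genes 10 were positive (11 as deposited), where 51.2% of all probe sets were positive (65.1% as deposited). Their median was 0.21 (0.34 as deposited), with 0 called and 1 at an unadjusted p under 0.05. Egln3, a prolyl hydroxylase of hypoxia-inducible factors, had signals of 567.3, 552.8 and 378.5 in the UDCA pools, against 286.0, 399.5 and 246.1 in the control pools, and a log2 fold change of 0.58 (SE 0.21), with overlapping groups. The glycolytic genes Pgk1 and Ldha had 0.21 and 0.17, and the peptide gene Adm had 0.48. Of these, Pgk1 had separate groups.

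Of 12 genes of proliferating cells 5 were positive (6 as deposited), with a median of -0.14 (-0.01 as deposited), 0 called and 1 at an unadjusted p under 0.05. Mki67, a marker of cycling cells, had signals of 1167.7, 1023.0 and 1214.5 in the UDCA pools, against 1562.1, 1327.7 and 1748.3 in the control pools, and a log2 fold change of -0.56 (SE 0.17), with UDCA below control in all pools. Top2a, Rrm2 and Ccnb2 had -0.49, 0.41 and -0.26, with overlapping groups.

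**Figure D4:**
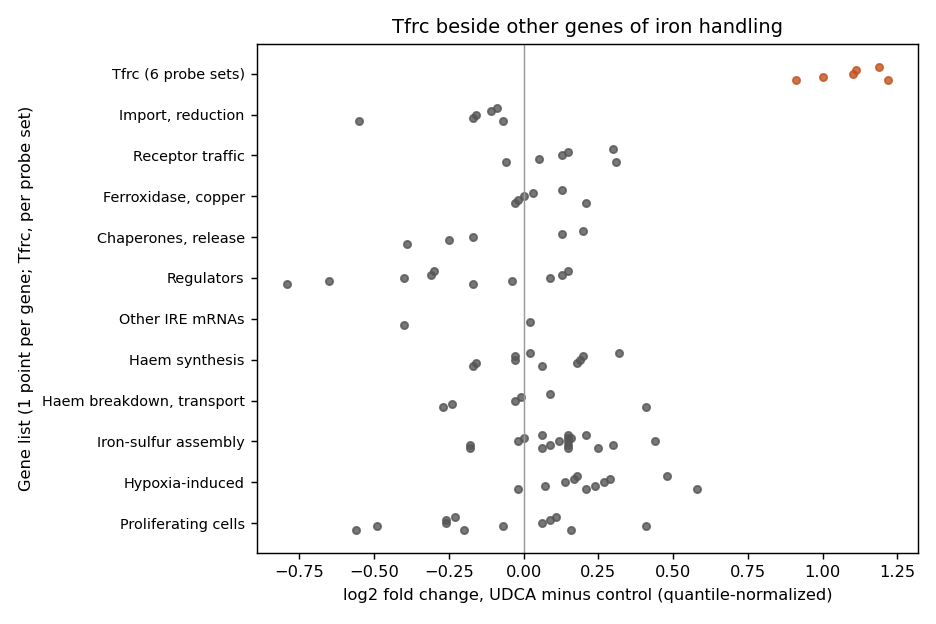
Log2 fold change, UDCA minus control (horizontal axis, quantile-normalized), of the 6 Tfrc probe sets (orange) and of the genes above the filter in 9 lists of iron handling, a list of hypoxia-induced genes and a list of proliferation genes (grey, 1 point per gene). Tfrc lies between 0.91 and 1.22, Egln3 at 0.58 is the highest of the listed genes, and Bmp2 at -0.79 is the lowest.

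Red blood cell precursors carry many transferrin receptors. Summed over the 12 erythroid markers, signals were 126 to 242 in UDCA pools and 142 to 151 in control pools, and Alas2, the erythroid enzyme of haem synthesis, had at most 2.2 on any array. Macrophages recycle iron. Summed over their 17 markers, signals were 765 to 906 in UDCA pools and 784 to 884 in control pools. Most of each sum was Cd14, with 574.7, 592.9 and 569.0 in the UDCA pools, against 619.1, 664.6 and 622.1 in the control pools. The part of either cell type in the Tfrc values was not tested.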

How the data were processed

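Colon epithelium RNA of 3 UDCA and 3 control pools was measured on Affymetrix arrays. The authors' deposited intensity is 1 signal per probe set, summarised with GCOS per the submitters' processing notes. No source used here states the GCOS version, a scaling target or present calls. Biotin-labelled cRNA was made from 3 µg RNA, per the labels' protocols. The number of arrays limits the precision.

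Values were log2(intensity + 16), quantile-normalized, since array levels differed. The brighter 50% (11314 probe sets, by their mean) were fitted with limma 3.58.1 (R 4.3.3; lmFit, eBayes with trend, two-sided), Benjamini-Hochberg adjusted, with a threshold of 0.05. Of 64 Affymetrix control probe sets, 3 (TransRecMur) were kept. The fit was tested on simulated data. The platform annotation gave 20393 probe sets 1 symbol, 691 several and 1606 none, and symbols were updated through gene IDs (GRCm38.p6).

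Members and lists were chosen with earlier results of these data known. All member probe sets are given. Per list, up to 4 genes with the smallest p are named, and 5 genes most and 5 least like Tfrc 1452661_at, passing over clones and predicted genes. Fabp2, Fabp6, Slc5a1, Rbp2, Apob, Apoa4, Lct, Slc10a2, Car1, Krt8, Cd14 and Alas2 were picked from the marker lists, and Ciapin1, Smad5 and Bmp6 from their lists, after their values were seen. Alternatives were other scales, pseudocounts and filters, no trend, a replicate block and leaving out each array. The authors' table of group averages and folds was not used here.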

Additional observations from a re-analysis of the deposited data

How the results depend on the processing

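The calls depended on the scaling. In limma 1 probe set was called over all, and 82 (54 higher, 28 lower) with the intensities as deposited, where 6 member probe sets, all of Tfrc, were called in place of 0. The count over all was 0 with no filter (2315 at an unadjusted p under 0.05), 0 in the upper 25% (789) and 0 with the pool number as a replicate block (1493). Leaving out each array in turn it was 0 to 36, the highest without control 5+6, and 6 without UDCA 5+6. Of other iron genes 0 probe sets were called, and leaving out each array 0 to 1. Same-numbered pools had correlations of -0.11, 0.16 and 0.05 between their deviations from the group means, and differently numbered pools -0.20 to 0.15. With 3 pools a group, these values do not settle whether the numbers pair the samples. With or without the block 0 member probe sets were called.

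The log2 fold change of Tfrc 1452661_at was 0.68 to 1.18 over 14 alternatives, and those of the other Tfrc probe sets stayed positive in all 14. The sign turned in at least 1 alternative for Fth1, Ireb2, Slc11a2 1417584_at and Slc40a1 1448566_at, and both Aco1 probe sets came to 0.00 without control 3+4. With 3 arrays a group, each pooled from 2 animals, the spread between animals is not measured, and detection of dim probe sets such as those of Slc11a2 cannot be judged without detection calls.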
